A study of Populus trichocarpa and Populus tremula x Populus alba with 22 samples.

Results

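Leaf transcripts were profiled in hybrid poplar (Populus tremula x Populus alba) that carried a PtrbHLH011 overexpression construct, and were set against leaves of plants with an empty vector. The comparison rests on 6 of the 22 libraries of the study, 3 of overexpression leaf and 3 of empty-vector leaf, chosen by tissue and genotype label alone. All 6 came from plants aged 4 months, and both groups were transgenic. The overexpression libraries share 1 name stem (DT6-1) and the controls another (Ctrl2). The labels call the libraries biological replicates. They state neither how many independent lines were sampled, nor which promoter drives the construct, nor whether each library is a separate plant, so p-values describe the spread between these libraries. Stems of the same genotypes (2 overexpression and 2 empty-vector libraries) and young leaves and 3rd internodes of Populus trichocarpa kept at 0 µM or 10 µM Fe for 21 days (3 libraries per tissue and Fe level) were used where stated.

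PtrbHLH011 is a basic helix-loop-helix (bHLH) transcription factor. Proteins of this family bind DNA as dimers, at short sites known as E-boxes, and several of them form the regulatory cascade by which plants match Fe uptake to demand. In Arabidopsis, bHLH11 is known as a repressor of Fe uptake genes. Leaves need much Fe, since the photosynthetic electron transport chain is rich in haem and Fe-S proteins. The deposited tables identify genes by ID only, and 0 of 42950 IDs matched the reference table (assembly P.trichocarpa_v4.1). No ID is therefore given a name or a function here, the PtrbHLH011 transcript was not matched to an ID, and its level was not set against the genotype labels. Genes are described by their level, size of change, neighbours and behaviour in the other samples.

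The 6 leaf libraries held 26620695 to 29375679 reads, counted as whole multiples of the deposited step. Marker genes could not be looked up, and the tissue label was compared with the other libraries instead. Across the 27024 genes tested, the log2 values of overexpression leaves correlated at 0.748 to 0.777 with those of Fe-sufficient young leaves and at 0.601 to 0.630 with overexpression stems. For empty-vector leaves the same correlations were 0.768 to 0.808 and 0.620 to 0.671. These are descriptions across genes, which are not independent replicates, and the young leaves differ in species, RNA kit and library type.

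Overexpression and empty-vector leaves formed separate groups. Correlations ran from 0.959 to 0.972 among the 3 overexpression libraries, from 0.950 to 0.977 among the 3 empty-vector libraries and from 0.866 to 0.915 between the groups. The first principal component held 67.7% of the variance and parted the genotypes. The second held 14.3% and placed the overexpression libraries between -18.6 and 32.8, and the empty-vector libraries further apart, between -73.1 (replicate 3) and 54.8 (replicate 1). Replicates lay at least 4-fold apart for 685 genes among the overexpression leaves and for 1225 among the empty-vector leaves. The median range of a gene was 0.45 log2 units in overexpression and 0.42 in empty-vector leaves.

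**Figure D1:**
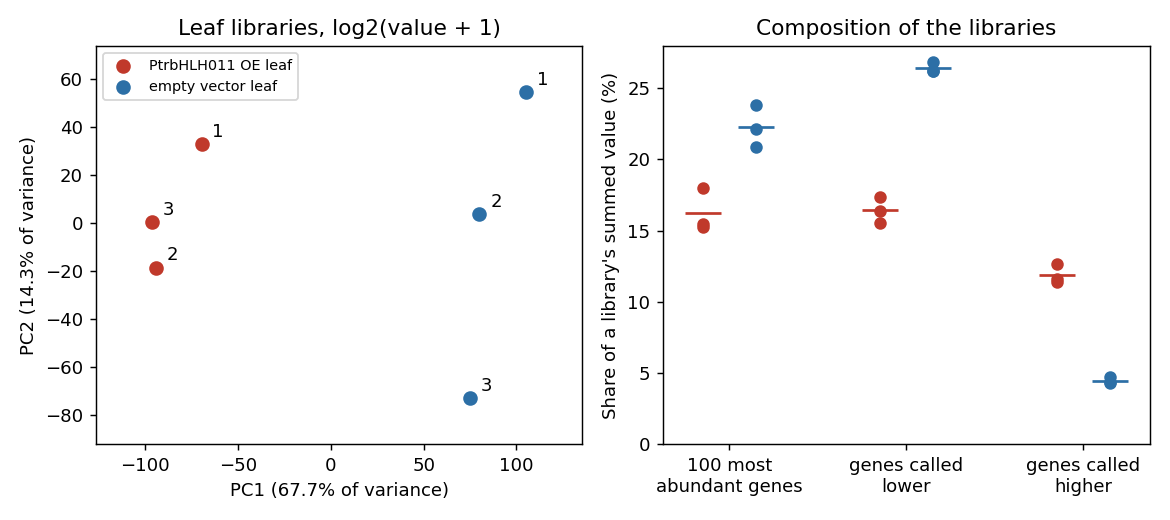
Left, the 6 leaf libraries on the first and second principal components of log2(value + 1), numbered by replicate: genotypes part along the first axis and empty-vector libraries spread along the second. Right, the share of each library's summed value held by its 100 most abundant genes and by the genes called lower or higher, with points for libraries and lines for means of 3: overexpression leaves stand at 15.2 to 18.0% for the 100 most abundant genes, below all 3 empty-vector leaves.

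Expression was spread over more genes in overexpression leaves. The 100 most abundant genes of each library held 15.5, 18.0 and 15.2% of its summed value in overexpression replicates 1 to 3, against 20.9, 22.2 and 23.8% in the empty-vector replicates. Overexpression replicate 2 lay nearest to the controls, and the groups did not overlap. The number of genes with a value of at least 10 was 26745, 26751 and 26882 in overexpression leaves, against 26212, 26322 and 26038 in empty-vector leaves. Both differences gave p = 0.1 in an exact two-sided permutation test, the smallest that 3 against 3 libraries allow. In bulk leaf tissue, fewer cells of a type and less RNA per cell cannot be told apart.

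Of 27024 genes tested, limma called 5760 (21.3%) at an adjusted p under 0.05, of which 3434 (12.7%) rose and 2326 (8.61%) fell in overexpression leaves. Rises were larger than falls. The median log2 change was 1.43 among genes that rose and -0.83 among genes that fell, and over all genes tested it was 0.00 (-0.0019). At a change of at least 2-fold, 2331 genes rose and 820 fell. At 4-fold the counts were 1154 and 201, and at 8-fold 664 and 65. At 16-fold 385 genes rose (1.42%) and 27 fell (0.0999%), and at 64-fold 75 rose and 5 fell. Together the genes that rose made up 11.4 to 12.7% of the summed value in overexpression leaves, against 4.30 to 4.72% in empty-vector leaves. Those that fell made up 15.5 to 17.3% in overexpression leaves, against 26.2 to 26.8% in empty-vector leaves. These shares describe the called genes and are no further test of them.

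**Figure D2:**
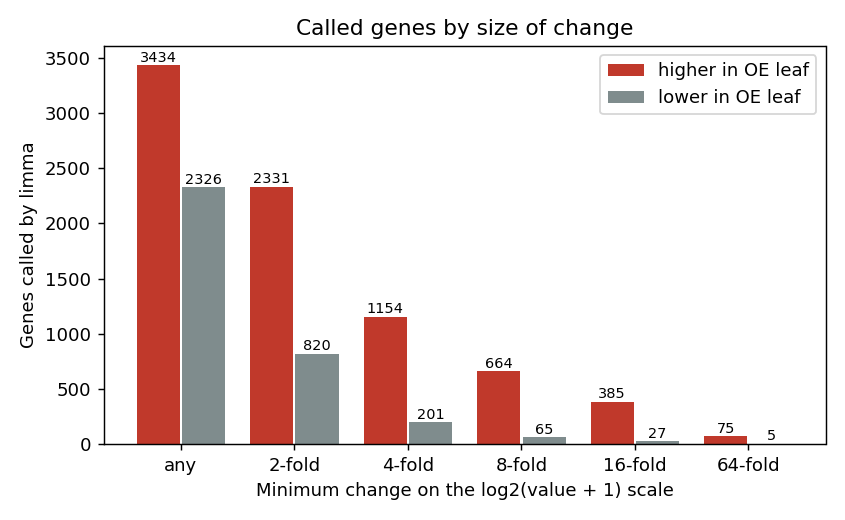
Number of genes that limma called higher (left bar of each pair) or lower (right bar) in overexpression leaves, at increasing minimum changes on the log2(value + 1) scale. The excess of rises grows with the size of the change, from 3434 against 2326 without a minimum to 75 against 5 at 64-fold.

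The counts leaned on single libraries. Without overexpression replicate 3 limma called 1834 genes higher and 932 lower, and without empty-vector replicate 2 it called 2286 and 1091. Without empty-vector replicate 1 the count of genes lower was 1541. The split moved with scaling: quantile normalization gave 2977 genes higher and 2842 lower, so that 51.2% of its calls were rises, against 59.6% in the values above. The counts at 16-fold, 385 higher and 27 lower, were 236 and 44 with quantile normalization, 142 and 13 with a pseudocount of 5, and 211 and 17 with the filter set at 50.

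By the log2 change of the limma fit, Potri.008G099900 on chromosome 8 rose most among the genes eligible for naming. It stood at 16251, 20429 and 21226 normalized counts in overexpression leaves, against 7.19, 7.12 and 5.44 in empty-vector leaves. All 3 overexpression libraries were high and close together, and the gene ranked 101st of 42950 by mean level in overexpression leaves. The log2 change was 11.31 ± 0.17 (SE, n = 3 each, limma adjusted p = 1.3e-07). Its level was low in the other samples, at 67.3 and 59.7 in overexpression stems and 13.3 and 7.07 in empty-vector stems. Young leaves held 60.2, 17.3 and 5.91 at 0 µM Fe and 0 in each library at 10 µM Fe.

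Potri.018G098200, on chromosome 18, had values of 7095, 3776 and 6051 in overexpression leaves, against 0, 0 and 62.0 in empty-vector leaves. The lone control signal was in replicate 3. The log2 change was 10.42 ± 1.45 (SE, n = 3 each, limma adjusted p = 0.0029). Its size depended on that library and on the method. It was 12.41 without empty-vector replicate 3 and 9.42 without empty-vector replicate 1 or 2, 12.64 with a pseudocount of 0.1, 8.16 with edgeR and 8.09 with DESeq2. Potri.018G098200 rose more than Potri.008G099900 without empty-vector replicate 3, with the pseudocount of 0.1 and with sample weights. The gene was at 0 in both overexpression stems, both empty-vector stems, all 6 internodes and all Fe-sufficient young leaves, and at 1.48 in 1 Fe-deprived young leaf.

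Among genes that fell, Potri.001G139700 on chromosome 1 was at 0 in all 3 overexpression leaves, against 156, 164 and 55.5 in empty-vector leaves. Taken against 3 reads per library it was at least 43.8-fold lower (limma adjusted p = 0.00033). The level in stem was low in both genotypes, 4.95 and 1.93 in overexpression and 2.05 and 3.03 in empty-vector stems. In young leaves of the Fe experiment it was expressed at both Fe levels, at 303, 337 and 347 without Fe and 614, 631 and 474 with Fe.

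Potri.012G130600, on chromosome 12, was at 40.0, 13.6 and 15.9 in overexpression leaves, against 2348, 2170 and 2439 in empty-vector leaves. The log2 change was -6.74 ± 0.37 (SE, n = 3 each, limma adjusted p = 0.00016). Stem levels were 60.4 and 87.6 in overexpression and 30.8 and 44.4 in empty-vector plants. Young leaves showed a gap in the same direction, with 137, 60.2 and 306 at 0 µM Fe and 9610, 11262 and 10803 at 10 µM Fe. These 4 genes were picked for large changes and separate groups, and 41.1% of all genes tested had groups that did not overlap.

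**Figure D3:**
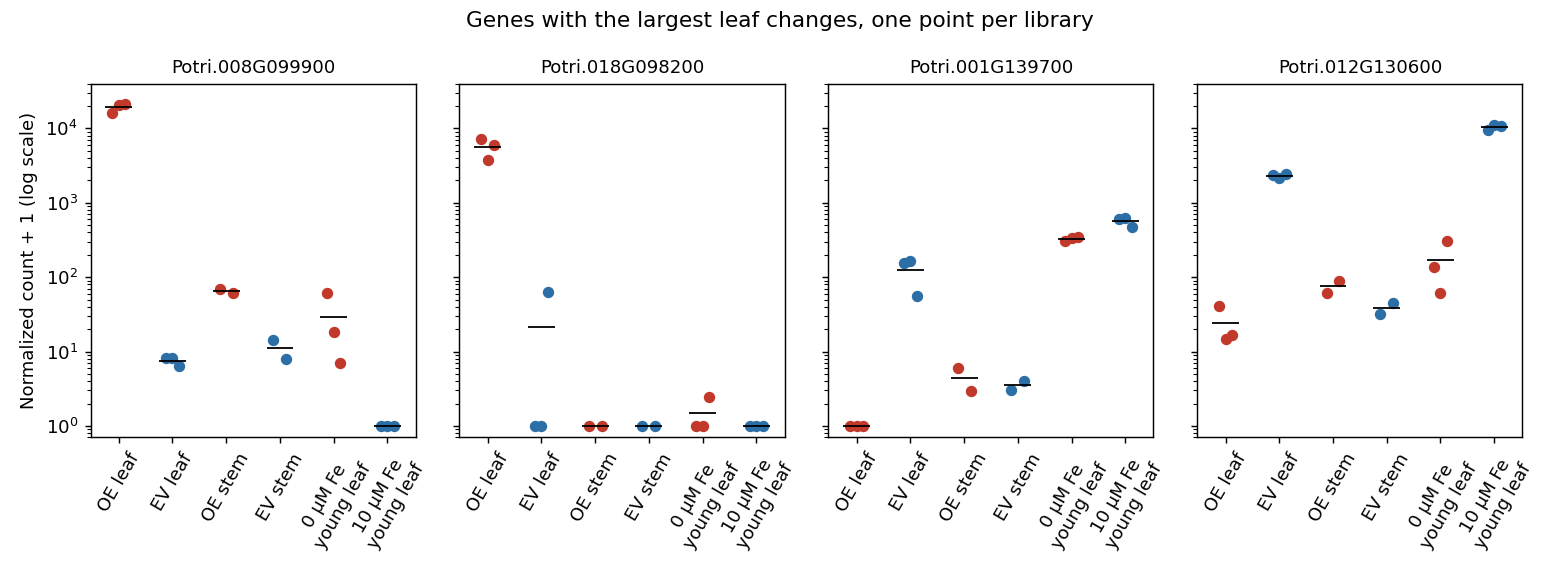
Normalized count + 1 on a log axis for the genes with the largest rises and falls in leaf, with 1 point per library and a line at each group's mean; tables for leaf, stem and Fe-treated young leaf were normalized separately. OE is PtrbHLH011 overexpression and EV the empty vector. Potri.008G099900 and Potri.018G098200 are high in the 3 overexpression leaves only, and Potri.012G130600 is low in overexpression leaves and in leaves at 0 µM Fe.

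Direction went with the level at which a gene is expressed in leaves of an independent experiment. Genes were sorted by their mean in Fe-sufficient young leaves, libraries that took no part in the comparison. Of 652 genes above 10000 normalized counts there, 251 fell (38.5%) and 38 rose (5.83%) in overexpression leaves, with a median log2 change of -0.48. From 1000 to 10000, 1185 of 9452 genes fell (12.5%) and 897 rose (9.49%). From 100 to 1000 the balance was the opposite, with 1369 of 11219 genes higher (12.2%) and 632 lower (5.63%), and from 10 to 100, 662 of 3906 rose (16.9%) and 139 fell (3.56%). At the bottom, above 0 and up to 10, 295 of 1093 genes rose (27.0%) and 59 fell (5.40%), with a median of 0.46. Of 702 genes at 0, 173 rose (24.6%) and 60 fell (8.55%). A gene at a low level has little room to fall, and some of these genes passed the filter through the overexpression leaves alone, so the low classes favour rises by construction.

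**Figure D4:**
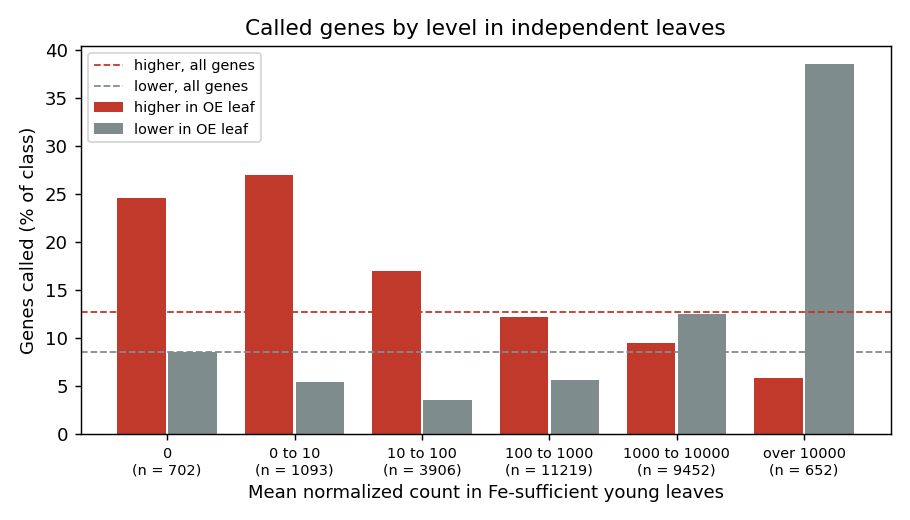
Share of genes called higher (left bar) or lower (right bar) in overexpression leaves, for genes grouped by mean normalized count in Fe-sufficient young leaves of the other experiment; dashed lines give the shares over all genes tested. The share that fell reaches 38.5% above 10000, and the share that rose is 27.0% between 0 and 10.

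The fall of highly expressed genes varied in extent with scaling, library and test. In the class above 10000, quantile normalization left 133 genes lower. Without overexpression replicate 3 there were 117, and without empty-vector replicate 2 there were 132. Sample weights gave 381. A test against a 2-fold minimum, which demands a larger change, called 5 lower, against 251 without it. Among genes at 10 or below, 468 rose in all, against 300 without overexpression replicate 3 and 215 with a filter at 50. The 2-fold minimum gave 199 there and sample weights 677.

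A set of genes was silent in the control leaves. In 105 genes the 3 empty-vector leaves held 0 reads and every overexpression leaf held a value of at least 10. The reverse pattern was found in 4 genes, among them Potri.001G139700. Of the 105, 18 reached at least 50 in every overexpression leaf, with means of 65.1 to 263 and a median of 108. Against a floor of 3 reads per library they were at least 20.8-fold to at least 83.9-fold higher. Most of the 105 were also low in stem, where 13 had a mean of at least 10 in overexpression plants and 14 in empty-vector plants. In Populus trichocarpa, 35 (33.3%) reached a mean of 10 in Fe-sufficient young leaves and 53 (50.5%) in Fe-sufficient internodes, against 93.4% and 92.9% of all genes tested. With 0 reads in the control leaves, these genes could pass the filter only through the overexpression leaves. That choice favours low shares in other samples, and no test of the shares was made.

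The 385 genes with rises of 16-fold or more were a larger group that also had low control levels. Their median level was 97.9 in overexpression leaves and 1.75 in empty-vector leaves, 0.50 in overexpression stems and 3.04 in empty-vector stems. In the stem, 79 of 385 (20.5%) had a mean of at least 10 with overexpression and 133 (34.5%) with the empty vector. Over all genes tested in leaf the corresponding shares were 84.6% and 86.3%. In Populus trichocarpa at 10 µM Fe, 220 (57.1%) reached 10 in young leaf and 232 (60.3%) in internode. Each of these shares is below that of all genes tested in the same samples; the filter could admit a gene through the overexpression leaves alone, and no test of the shares was made. The 27 genes that fell at least 16-fold had a median of 7.65 in overexpression leaves and 139 in empty-vector leaves, and 22 of them (81.5%) reached 10 in Fe-sufficient young leaves.

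Neighbours of risen genes were often risen genes too. Populus gene IDs carry the chromosome and by naming convention run in order along it, so neighbours were read from the IDs. That order was not checked against a genome, and not in the hybrid sampled. Neighbours are next to each other among the tested genes only. Of 3433 risen genes followed by a tested gene on the same chromosome or group of unplaced scaffolds, 757 (22.1%) were followed by a gene that also rose and 249 (7.25%) by one that fell. Over all genes the shares were 12.7% and 8.61%. Of 2324 fallen genes, 272 (11.7%) were followed by another fallen gene and 234 (10.1%) by a risen one. The share of genes that rose ran from 10.0% on chromosome 13 to 16.9% on chromosome 19, and was 17.6% on unplaced scaffolds. The share that fell ran from 6.69% on chromosome 11 to 10.4% on chromosome 9, and was 4.23% on unplaced scaffolds.

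The densest stretch was on chromosome 4. Windows of 50 tested genes had median log2 changes between -0.37 and 1.32, with 5% of the 2528 overlapping windows below -0.16 and 5% above 0.20. The highest window, with 25 genes higher and 1 lower, lay between the 101st and 150th tested genes of chromosome 4. Within it, 17 of 18 consecutive tested genes rose, with log2 changes from 0.99 to 6.32 and a median of 3.91. With the filter at 50, which tests fewer genes, 9 of them were called higher, and with a 2-fold minimum 12 were. Their summed value was 3878, 5701 and 4496 in overexpression leaves, against 798, 1088 and 815 in empty-vector leaves. The genotypes did not overlap, but the stretch was picked by calls in these same libraries, so the gap is no further test. In all empty-vector leaves, 4 of the 18 genes had 0 reads. Over all genes tested, 26919 of 27024 had a mean above 0 there. In stem the sum was 76.3 and 85.7 with overexpression and 83.1 and 203 with the empty vector, and 4 of the 18 genes passed the stem filter. It was 1920, 1097 and 1058 in young leaves at 0 µM Fe and 1318, 1365 and 2295 at 10 µM Fe. Internodes had the highest sums, 9695, 8868 and 7986 at 0 µM Fe and 5708, 8831 and 3768 at 10 µM Fe.

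**Figure D5:**
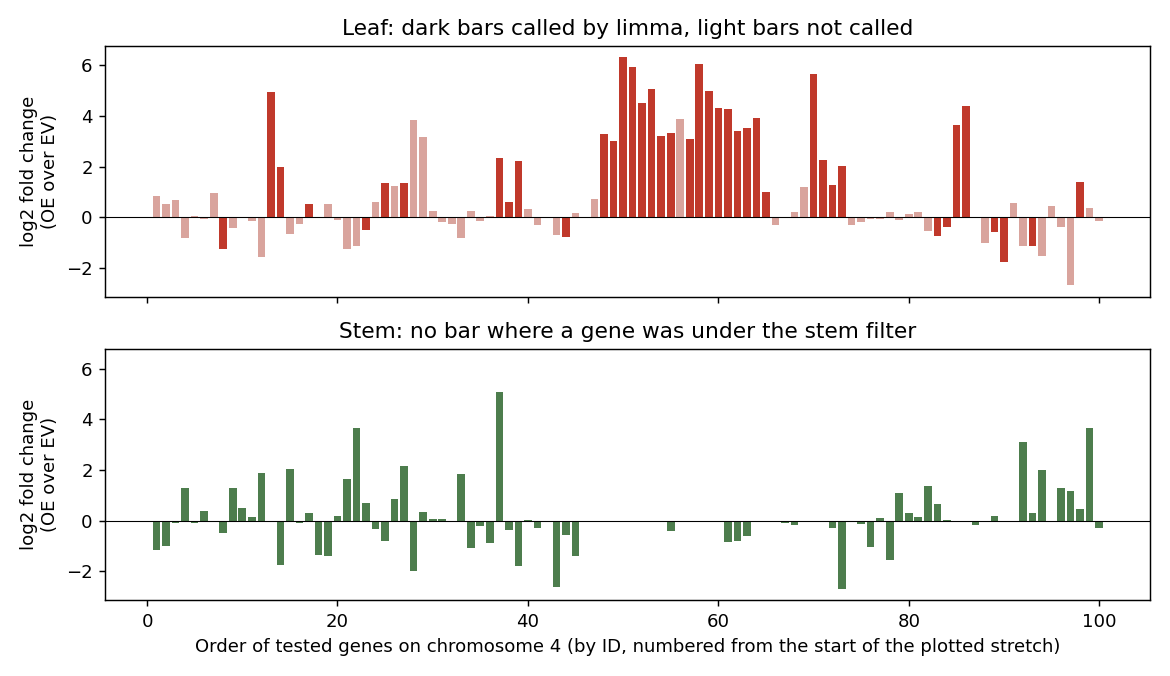
log2 fold change of overexpression over empty vector for 100 consecutive genes tested in leaf on chromosome 4, in order of ID, in leaf (above) and stem (below). In leaf, 17 of 18 neighbouring genes in the middle of the plot rose, and in stem most of them were under the filter on low values.

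Other runs of 7 or more neighbours with the same call were found on chromosomes 4, 7, 11 and 17. A second run of 8 on chromosome 4 summed to 1736, 2669 and 2027 in overexpression leaves, against 574, 676 and 485 in empty-vector leaves. It was all but absent from stem, with sums of 0 and 6.74 under overexpression and 22.6 and 5.05 with the empty vector. A run of 7 on chromosome 7 summed to 2160, 3252 and 3526 in overexpression leaves, against 207, 279 and 257 in empty-vector leaves. Its stem sums overlapped, at 60.4 and 58.7 with overexpression and 46.1 and 130.3 with the empty vector. That on chromosome 17, with 8 genes, summed to 1037, 1942 and 1421 in overexpression leaves, against 334, 369 and 323 in empty-vector leaves. In stem it summed to 561 and 469 with overexpression and 761 and 564 with the empty vector. The run of 7 on chromosome 11 summed to 324, 480 and 460 in overexpression leaves, against 78.1, 56.9 and 60.9 in empty-vector leaves. In stem the sums were 1690 and 1480 with overexpression and 2629 and 2747 with the empty vector. The runs on chromosomes 11 and 17 were thus higher with overexpression in leaf and lower in stem, without overlap in either tissue. The sums were not tested, and the leaf gaps follow from the choice of runs by their leaf calls. On chromosome 17 the stem groups all but met, at 561 against 564, and only 1 of the 8 genes passed the stem filter. Of the 4 genes of the chromosome 11 run tested in both tissues, 3 had a higher effect in leaf by limma's test of the difference. That share was 17.3% over all genes tested in both tissues, and 1808 of 2568 among genes that rose in leaf.

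A single run of that length fell. It held 8 genes on chromosome 7 and summed to 381, 525 and 348 in overexpression leaves, against 1224, 1273 and 1818 in empty-vector leaves. The sums were lower with overexpression in stem too, 149.6 and 89.5 against 293 and 438 with the empty vector. For none of its 6 genes tested in both tissues did limma call the leaf effect lower than the stem effect. Over all genes tested in both tissues that share was 18.8%, and among genes that fell in leaf it was 1358 of 2081. With so few genes no conclusion is drawn from this count, which was not tested. Young leaves had 1510, 912 and 1140 at 0 µM Fe and 2462, 2693 and 2450 at 10 µM Fe, again without overlap. Without overexpression replicate 3, 4 of its 8 genes were called, and with a 2-fold minimum 1 was. Neighbouring genes in such runs may be near-identical copies that share reads, and the sources used here do not say how the authors' counting assigned such reads. The values of single genes in a run are uncertain for that reason. The runs were singled out after their values were seen.

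Effects of the construct in leaf were then set against those in stem. The difference between the tissues was called for 8449 of 23372 genes tested in both (36.2%), with the leaf effect higher for 4047 (17.3%) and lower for 4402 (18.8%). The stem libraries took no part in choosing the genes called in leaf. They share the name stems DT6-1 and Ctrl2 with the leaf libraries, and the labels do not say whether they came from the same plants. Of 2568 genes that rose in leaf and were tested in stem, 899 (35.01%) had a positive stem change, and their median stem change was -0.29. Of 2081 that fell in leaf, 1346 (64.7%) had a positive stem change, with a median of 0.24. Over all 23372 genes 50.2% were positive and the median was 0.00 (0.0034). The 121 genes with leaf rises of 16-fold or more that passed the stem filter had a median stem change of -1.03 and a median leaf change of 4.77, and 34 of them (28.1%) were positive in stem. A gene low in overexpression stems could pass that filter only through the empty-vector stems, which favours negative stem changes in this set. Without overexpression stem replicate 2 the difference was called for 5329 genes.

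The genes with the largest tissue differences, picked after their values were seen, showed both forms of this. Potri.006G129900, on chromosome 6, was at 347, 305 and 881 in overexpression leaves, against 0, 3.05 and 0 in empty-vector leaves. In stem the order was turned round, with 152 and 81.8 in overexpression and 869 and 921 in empty-vector plants. The leaf minus stem difference was 11.15 ± 0.91 log2 units (SE, 3 leaf and 2 stem libraries a genotype, limma adjusted p = 0.00011). Potri.017G084800, on chromosome 17, likewise had 146, 482 and 184 in overexpression leaves, against 0, 3.05 and 0 in empty-vector leaves. Its stem values were 2.97 and 9.63 with overexpression and 35.9 and 68.7 with the empty vector (difference 10.17 ± 1.08, limma adjusted p = 0.00028). With control leaves near 0 these sizes depend on the pseudocount. Between pseudocounts of 5 and 0.1 the difference ran from 9.24 to 13.49 for Potri.006G129900 and from 7.70 to 12.72 for Potri.017G084800.

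The largest negative differences arose in separate ways. Potri.012G130600 fell in leaf but not in stem (leaf minus stem -7.70 ± 0.57, limma adjusted p = 8.3e-05). Its stem level was low in both genotypes, which limits a fall there. Potri.006G065500, on chromosome 6, was high in all leaves, at 16142, 6841 and 10535 with overexpression and 16603, 13600 and 5895 with the empty vector. Its leaf change was -0.06 ± 0.43 log2 units (SE, n = 3 each, limma adjusted p = 0.93), with overlapping groups. In stem it stood at 590 and 1428 with overexpression and 4.10 and 6.06 with the empty vector, and the leaf minus stem difference was -7.32 ± 0.71 (limma adjusted p = 0.00020). Potri.008G099900 was higher with overexpression in both tissues and by 8.73 ± 0.38 log2 units more in leaf (limma adjusted p = 6.5e-06).

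The series sets overexpression beside an Fe deprivation experiment. Fe classes were taken from young leaves of the Fe experiment, whose libraries share none with the overexpression leaves. Of 75 genes at least 16-fold higher without Fe, 52 were tested in overexpression leaves, where 26 rose and 1 (1.92%) fell. Their median log2 change under overexpression was 2.22. The 86 genes at least 16-fold lower without Fe gave 57 tested, of which 29 (50.9%) also rose under overexpression and 14 (24.6%) fell, with a median of 1.08. Over all genes tested, 12.7% rose and 8.61% fell. These shares are not like for like, since a gene near 0 in empty-vector leaves could pass the filter through the overexpression leaves alone, and no test of them was made. With a 2-fold minimum, 17 of the first class rose. Over the full lists, 19.4% of 789 genes higher without Fe rose and 8.62% fell, and 16.4% of 839 genes lower without Fe rose and 18.2% fell. Read from the other side, 221 of those 385 genes with rises of 16-fold or more were tested in the Fe experiment, where 25 (11.3%) were higher and 21 (9.50%) lower without Fe. Over all 25301 genes tested in both experiments, 3.12% were higher and 3.32% lower without Fe. The gap between these shares was not tested. The experiments differ in species, RNA kit and library type, so the size of the changes was not compared between them.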

How the data were processed

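RNA-seq gene tables of 22 libraries were read, 6 of them the leaf libraries described here. In each table, 1 per tissue and experiment, the authors deposited a normalized signal: the count of a gene over the size factor of its library. The submitters' processing notes name DESeq2 2.11.40.7, StringTie 2.2.1 and HISAT2 2.2.1 but assign them no role. The column headers of the young leaves name StringTie gene counts. Gene IDs were deposited with the suffix of an annotation version other than that of the reference table. Apart from that suffix no source used here bears on the genome build. None states the strand setting or how multi-mapping reads were treated. Dividing leaf values by the step of their library gave whole numbers for 100% of values within 0.001, and these are called reads. They may be rounded estimates. The count tests use the leaf table alone. Floors of 3 reads cover counting error only.

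Genes with at least 10 in at least 3 leaf libraries were tested with limma 3.58.1 (R 4.3.3, mean-variance trend) on log2(value + 1). Tests were two-sided, p-values were adjusted by the Benjamini-Hochberg method, and calls needed an adjusted p under 0.05. Fold changes are overexpression over empty vector on that log scale. They are differences of mean logs: the pseudocount shrinks the change of genes that are low in every library of a group, and a group with libraries at 0 and others well above can give a change larger than the ratio of means. The leaf minus stem difference was a limma contrast over 10 libraries, 6 of leaf and 4 of stem, with genotype means per tissue. Each table was normalized on its own, and a scale factor common to a table cancels in it apart from the pseudocount. Fe classes used the same limma test on the young leaf table, a comparison added to the design. Scripts were tested on simulated data. edgeR 4.0.16 and DESeq2 1.42.0 on the recovered reads were alternatives.

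As no gene ID matched a name, the gene lists and the marker lists planned by function had 0 members. The rule for named genes then gives the IDs with the largest rises and falls among called genes with a mean of at least 50 in the higher group and no overlap, and the same without the overlap condition for the tissue difference. Genes, level classes, neighbour runs and comparisons were chosen with earlier results of these data known.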

Additional observations from a re-analysis of the deposited data

Results flagged for a closer look

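The effect of overexpression differed between leaf and stem, by a test of the difference itself, for 8449 of 23372 genes. Among the genes named above, the leaf minus stem difference in log2 units was 11.1 for Potri.006G129900, 10.2 for Potri.017G084800 and 8.73 for Potri.008G099900. It was -7.70 for Potri.012G130600 and -7.32 for Potri.006G065500. Each passed limma's adjusted threshold, which was a condition for being listed here and is no further support. Stem had 2 libraries per genotype, and groups of 3 leaf libraries are too small for a check of single outlying libraries.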

How the results depend on the processing

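The 6 named genes called in leaf kept their direction and call, though not their size, in each of the 17 alternatives. They were picked as extreme called effects in these same libraries, so this says little about how stable other calls are. The exception among named values was Potri.006G065500, not called in leaf, whose change of -0.06 became 0.27 with quantile normalization and ran from -0.51 to 0.25 without 1 library (0.25 without overexpression replicate 2, 0.23 and 0.09 without empty-vector replicates 1 and 2). The 5760 leaf calls numbered 5847 with edgeR, 7199 with DESeq2, 5819 with quantile normalization (2977 higher and 2842 lower) and 5886 with upper-quartile scaling. Sample weights gave 12199 (6293 higher and 5906 lower), and a test against a 2-fold minimum gave 738 (680 higher and 58 lower), as its construction demands a larger change. Without 1 library the calls ran from 2766 to 5579, those higher from 1834 to 3277 and those lower from 932 to 2315, and for the tissue difference from 5329 to 8763; the cause was not tested. Fits without a stem library leave 1 library in an arm, assumed to vary like the rest. With the replicate number as a block 6364 leaf genes and 8866 tissue differences were called. The numbers did not pair the leaf libraries by the rule used (deviations of same-numbered libraries correlated at 0.29, 0.05 and 0.11). The column header of overexpression stem replicate 2 carries another number than its title, so the block may not match stem libraries. The count test of the tissue difference was not run. Depth limits the 105 silent genes: 0 reads in a library allows up to 3.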
